A study of Mus musculus with 12 samples.

Results

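The loss of Jaml, a junctional adhesion molecule-like protein of leukocytes and epithelia, was compared for its effect on how the mouse kidney responds to ischemia and reperfusion. The comparison is the interaction of genotype and injury, which is the log2 response of Jaml knockout (KO) kidneys minus the log2 response of wild-type (WT) kidneys. A positive interaction means a larger rise or a smaller fall in KO, and a negative one a smaller rise or a larger fall. All 12 arrays of the series entered it, 3 in each of 4 groups assigned from the sample titles. The groups were WT Sham, WT IRI 24h, Jaml KO Sham and Jaml KO IRI 24h, where IRI is ischemia-reperfusion injury and 24 h is the time after it. All mice were male and on the background that the series text writes as C57/6J, no age was given, and each array is 1 animal. In the IRI groups both kidneys were made ischemic. The time without blood flow is 40 min in the series text and 30 min in the protocol text, which could not be settled. The knockout is not described as limited to a cell type, so leukocytes and kidney cells may both lack the protein.

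In this injury the blood supply of the kidney is closed and reopened, and proximal tubule cells, which depend on oxidative metabolism, are the cells known to be hurt first. Damaged tubules are known to switch on repair and stress genes such as Havcr1 and Lcn2, and to release CXC chemokines that draw neutrophils through the receptor CXCR2. In bulk kidney RNA, fewer cells of a type and less RNA per cell cannot be told apart.

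Levels are log2 signals relative to the 75th percentile of the array, so a level of 0 is the signal that 75% of the probes lie below. The 24 proximal tubule markers were well above background on every array. WT IRI replicate 1 stood apart, lying 0.578 log2 units (root mean square over genes) from the mean of its group, where the other 11 arrays lay 0.205 to 0.433 from theirs. All WT arrays were on one slide and all KO arrays on another. A shift that a slide adds equally to its arrays drops out of the interaction, but a gap between genotypes in sham or in IRI kidneys and a gap between slides cannot be told apart. Jaml itself read -0.26, -0.26 and -0.44 in WT sham, 0.55, -1.80 and -1.64 in WT IRI, -3.54, -2.59 and -3.18 in KO sham and -1.89, -2.70 and -3.0 in KO IRI kidneys. All KO arrays lay below all WT arrays, although KO IRI replicate 1 lay close to WT IRI replicate 2. Its interaction was 1.22 ± 0.79 (SE, n = 3 per group) and did not pass the test (limma adjusted p = 0.613). The labels do not place the deletion, so whether the probe can check the genotype was not tested.

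Of 25947 genes and transcripts, 18 had an interaction past the threshold (limma, Benjamini-Hochberg adjusted p under 0.05), which is 0.0694%. In 13 the KO response was the lower one (0.0501%), and in 5 the higher one (0.0193%). The 13 include the neutrophil chemoattractants Cxcl3 and Cxcl2, the vitamin D catabolic enzyme Cyp24a1, the neuropeptide Grp, the pore-forming protein gene Gsdma and the chromatin protein gene Hmga1. The 5 include the signalling ligand gene Ihh and the receptor gene Gpr33. At an unadjusted p under 0.05 there were 2531 genes (9.754%). The count of 18 moved between 4 and 147 when single arrays were left out. For comparison, 3105 genes (12%) passed for the IRI response of WT and 1599 (6.16%) for that of KO.

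The chemokine pair showed the clearest form of the pattern. Cxcl3 read -8.17, -8.47 and -8.28 in WT sham, -3.57, -2.09 and -1.51 in WT IRI, -7.90, -8.20 and -8.31 in KO sham and -8.57, -8.40 and -8.43 in KO IRI kidneys. It was well above background on the 3 WT IRI arrays and on none of the other 9. The level in WT IRI kidneys was therefore at least 12.3-fold higher than in WT sham and at least 14.0-fold higher than in KO IRI kidneys. Here and below such a bound sets the mean of the measured group against the lowest signal that counted as well above background, or the probe's own signal where that was higher. The interaction of Cxcl3 was -6.25 ± 0.57 (adjusted p = 0.00595). With normexp background correction it was -2.04 and did not pass. In every normexp fit an offset of 50 was added to the signals, and array medians of the processed signal were 46.6 to 63.8. Such an offset brings dim signals closer together on the log2 scale, and its part in the smaller sizes was not tested.

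Cxcl2 read -8.16, -8.45 and -8.27 in WT sham, -3.86, -4.99 and -4.94 in WT IRI, -7.89, -8.17 and -8.30 in KO sham and -8.55, -8.39 and -8.41 in KO IRI kidneys. As for Cxcl3, only the WT IRI arrays were well above background, and they stood at least 2.67-fold above WT sham and at least 3.04-fold above KO IRI kidneys. Its interaction was -4.03 ± 0.38 (adjusted p = 0.00595), and with normexp -0.83, which did not pass. The fitted sizes of both genes depend on how the scanner software fills signals at background, so they are not bounds. Both genes entered the test through the 3 arrays on which they were high.

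Both encode ligands of CXCR2, and they lie near each other on chromosome 5, with probes at 91216694 to 91216753 for Cxcl3 and 91334534 to 91334593 for Cxcl2 (mm9). The 2 other CXCR2 ligands measured, Cxcl1 and Cxcl5, did not pass the interaction test. Cxcl1 read -2.03, -1.71 and 0.21 in WT sham, 3.91, 1.39 and 1.46 in WT IRI, -3.68, -3.37 and -2.88 in KO sham and -1.56, -2.30 and -0.03 in KO IRI kidneys. Its interaction was -1.41 ± 1.15 (adjusted p = 0.683), and that of Cxcl5 was -2.06 ± 0.87 (adjusted p = 0.488). The probes of Cxcl1, Cxcl2, Cxcl3 and Cxcl5 shared runs of at most 7 bases with each other. Whether a probe also matches the transcript of another of these genes was not tested.

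The 250 bases before the start of Cxcl2 and Cxcl3 are shown because these genes moved together and each window holds the letters GGAATTTCC, a core to which NF-kappaB is known to bind, in capitals. The sequences are from RefSeq on GRCm38.p6, 5′ to 3′ on the plus strand, chr5:90903649-90903898 for Cxcl2 and chr5:90785851-90786100 for Cxcl3.
Cxcl2: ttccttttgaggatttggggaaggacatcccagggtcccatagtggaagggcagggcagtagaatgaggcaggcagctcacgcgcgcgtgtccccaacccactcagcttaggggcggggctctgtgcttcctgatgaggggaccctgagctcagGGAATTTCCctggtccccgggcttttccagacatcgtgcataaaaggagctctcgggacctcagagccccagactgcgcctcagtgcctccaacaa
Cxcl3: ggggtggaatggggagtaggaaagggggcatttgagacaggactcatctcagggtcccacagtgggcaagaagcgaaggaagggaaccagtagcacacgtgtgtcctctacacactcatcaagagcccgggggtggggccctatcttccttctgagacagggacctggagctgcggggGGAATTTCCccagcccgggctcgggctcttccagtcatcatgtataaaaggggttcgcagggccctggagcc
The core begins at position -96 from the start in Cxcl2 and at -72 in Cxcl3. It was searched on both strands, after the values of both genes were seen, in windows of 250 bases before to 50 bases after the start, and 0.3811% of 27025 genes hold it. Among the 14 called genes that have such a window, Cxcl2 and Cxcl3 hold it. The interferon-stimulated response element core was in none of the 14 and in 3.993% of all genes with a window. With only 14 genes, a count of none cannot be told apart from that share. The letters TTCNNNGAA, a core bound by STAT proteins, were in 2 of the 14, Gpr33 and DXBay18, and in 9.554% of all genes with a window. These matches describe letters, not binding.

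Cyp24a1, the mitochondrial enzyme that degrades active vitamin D in the proximal tubule, moved in opposite directions in both genotypes. It read 1.55, 1.44 and 2.27 in WT sham, 4.43, 3.87 and 4.63 in WT IRI, 1.98, 2.96 and 1.74 in KO sham and 0.78, 0.20 and 1.06 in KO IRI kidneys. No IRI array overlapped the sham arrays of its genotype, and all 12 were well above background. The WT response was 2.55 ± 0.37 (adjusted p = 0.00423), the KO response -1.55 ± 0.37 (adjusted p = 0.0367), and the interaction was -4.10 ± 0.52 (adjusted p = 0.0235). Its direction held in all 27 alternative fits, with sizes from -4.36 to -3.73, and it passed the threshold in 18 of them. A fit with a slide term, which could only repeat the main fit, is counted in both.

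Grp, gastrin-releasing peptide, rose in both genotypes but less in KO. It read -1.92, -1.43 and -1.07 in WT IRI and -5.22, -5.88 and -4.18 in KO IRI kidneys, and was not well above background on any sham array. The rise was at least 23.2-fold in WT and at least 1.69-fold in KO. The interaction was -3.79 ± 0.53 (adjusted p = 0.0429).

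Gsdma, a gasdermin whose family forms membrane pores, read -2.76, -1.96 and -3.17 in WT IRI and -5.65, -5.87 and -5.18 in KO IRI kidneys. WT sham arrays were not well above background, and the WT rise was at least 10.4-fold, while the KO response of 0.60 ± 0.31 did not pass (adjusted p = 0.297). The interaction was -3.13 ± 0.43 (adjusted p = 0.0403). A second probe of the gene, above background on 3 arrays, gave -4.41 ± 0.75.

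Crtac1, which encodes a secreted matrix protein, read -4.50, -3.71 and -2.95 in WT IRI kidneys and was not well above background on the other 9 arrays. Its WT IRI level was at least 4.90-fold above WT sham and at least 5.58-fold above KO IRI, and its interaction was -4.72 ± 0.51 (adjusted p = 0.0138). It too entered the test only through the 3 arrays on which it was high, and with normexp its interaction was -1.14 and did not pass. Below background its sham arrays did not read alike, at -8.18 to -7.77 in WT and -6.46 to -6.39 in KO.

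Cited1, Hpcal4, Nxnl2 and Hmga1 rose in WT and were well above background on all 12 arrays. Cited1, a transcriptional coactivator known from nephron progenitors, read -3.73, -3.94 and -3.80 in WT sham, -0.73, -1.57 and -1.34 in WT IRI, -3.24, -2.96 and -3.03 in KO sham and -3.16, -2.89 and -2.77 in KO IRI kidneys. Its rise of 2.61 ± 0.20 in WT stood against 0.14 ± 0.20 in KO, and only the WT IRI arrays lay above the rest. The interaction of Cited1 was -2.47 ± 0.29 (adjusted p = 0.0235). Hpcal4, a neuronal calcium sensor gene, had a response of 2.47 ± 0.22 in WT and 0.01 ± 0.22 in KO, with an interaction of -2.46 ± 0.31 (adjusted p = 0.0235). A second probe of Hpcal4, above background on 3 arrays, gave -2.255 ± 0.73. Nxnl2, a thioredoxin-like gene, had 1.89 ± 0.19 in WT and -0.07 ± 0.19 in KO, with an interaction of -1.96 ± 0.26 (adjusted p = 0.0348), and -1.20 with normexp, which did not pass.

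Hmga1, an architectural chromatin protein that is highly expressed in dividing cells, had the smallest interaction of the 13. It read 3.50, 3.44 and 3.46 in WT sham, 5.65, 5.43 and 5.39 in WT IRI, 3.76, 3.78 and 3.67 in KO sham and 4.12, 4.50 and 4.37 in KO IRI kidneys. It rose in both genotypes, by 2.02 ± 0.12 in WT and 0.59 ± 0.12 in KO, and the interaction was -1.43 ± 0.18 (adjusted p = 0.0235). The 2 other probes of the gene gave -1.02 ± 0.35 and -0.91 ± 0.19.

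The last 3 of the 13 differed from the others in that KO sham kidneys were the highest group. DXBay18 read -4.05, -4.43 and -4.98 in WT sham, -3.12, -3.49 and -4.24 in WT IRI, -2.36, -2.48 and -2.40 in KO sham and -4.74, -5.21 and -4.70 in KO IRI kidneys. It fell by 2.47 ± 0.30 in KO, did not pass in WT (0.87 ± 0.30, adjusted p = 0.0858), and had an interaction of -3.34 ± 0.42 (adjusted p = 0.0235). A second probe of DXBay18, above background on 4 arrays, gave -2.48 ± 0.83, with responses of -0.08 in WT and -2.55 in KO. Gm5936 read -2.74, -3.02 and -2.86 in KO sham and between -5.77 and -3.55 on all other arrays, with an interaction of -3.53 ± 0.46 (adjusted p = 0.0290). Both lie on the X chromosome. The probe of Gm5936 shares 46 of 60 bases in one run with that of the X-linked gene Gm5640, and the probe of DXBay18 shares 31 with it, so these genes are uncertain as single genes. A transcript without a gene name, probed on chromosome 3 at 93150732 to 93150791 (mm9), read -4.92, -4.75 and -4.74 in KO sham kidneys and was not above background on the KO IRI arrays, a fall of at least 2.63-fold. Its interaction was -3.03 ± 0.29 (adjusted p = 0.00595), and -0.66 with normexp, which did not pass. The transcript, Gm5936 and 1700102P08Rik fall outside the rule by which genes were named and were added after their values were seen, as were Gm5640, Cxcl1, Cxcl5, Cxcl13, S100a8, S100a9, Il6, Hbb-b1 and Hbb-b2.

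**Figure D1:**
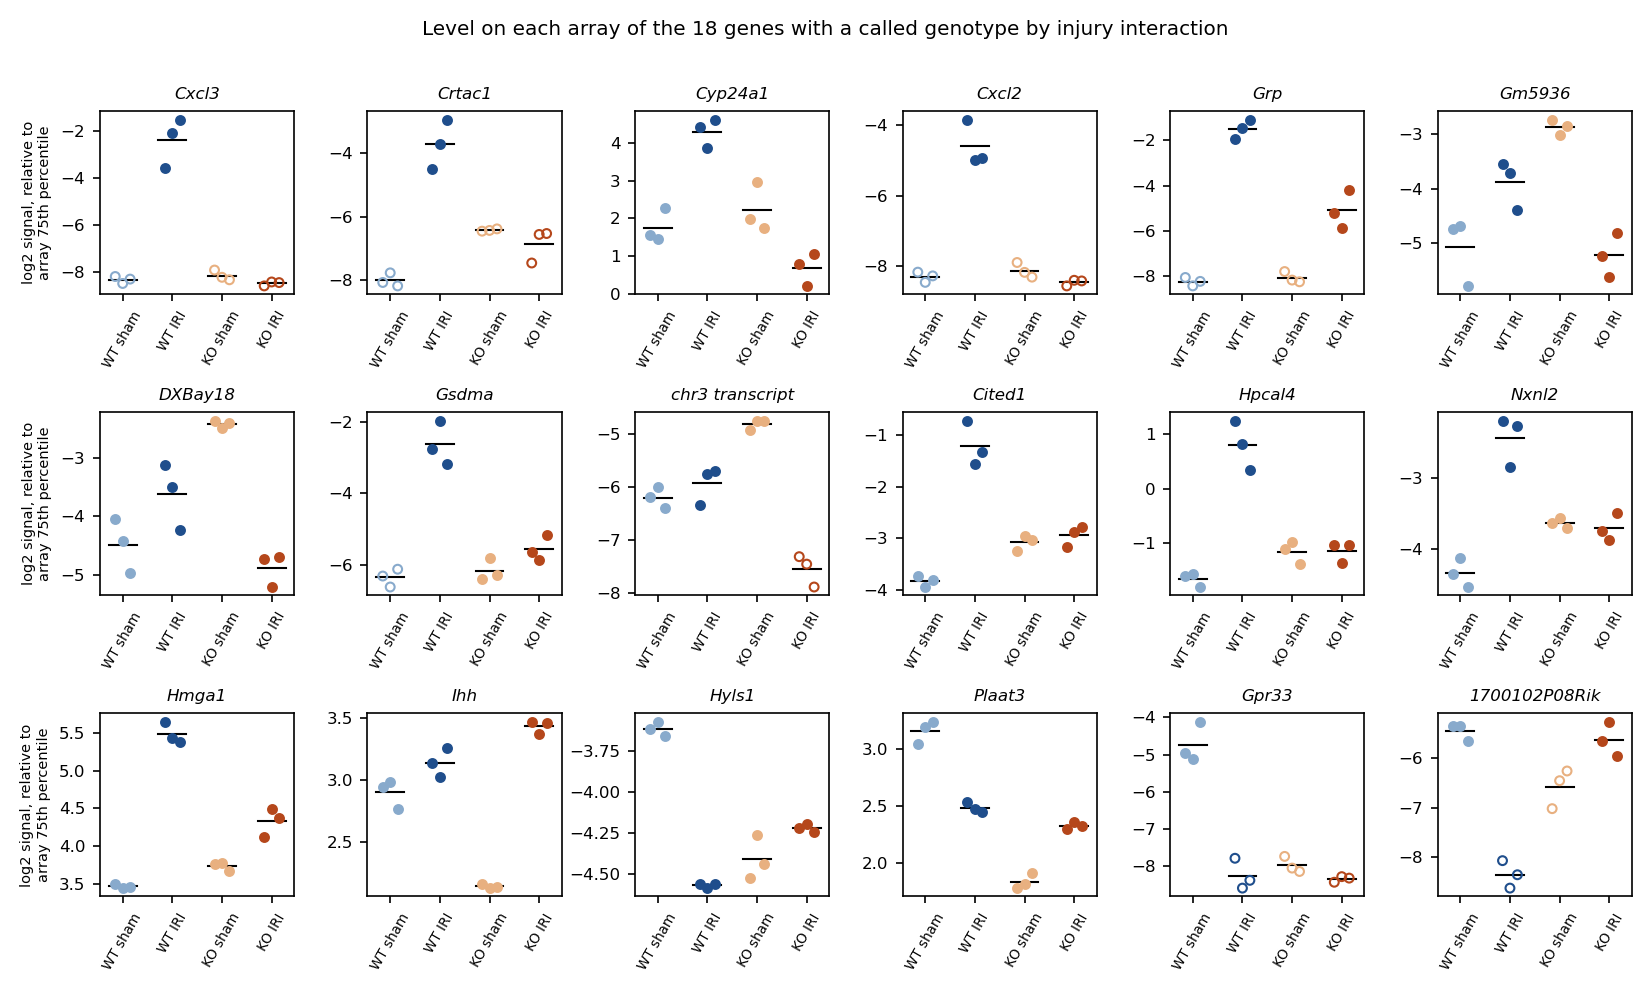
Log2 signal relative to the 75th percentile of the array (y axis) for each of the 18 genes past the interaction threshold, in the 4 groups (x axis). Each point is 1 array, horizontal lines are group means, and open points mark groups in which no array was well above background. In Cxcl3, Cxcl2 and Crtac1 only the WT IRI arrays are filled points.

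All 5 genes with the higher KO response were lower in KO than in WT sham kidneys, and 4 of them fell in WT after injury. Plaat3, a phospholipase and acyltransferase gene, read 3.04, 3.19 and 3.23 in WT sham, 2.54, 2.47 and 2.44 in WT IRI, 1.78, 1.82 and 1.92 in KO sham and 2.30, 2.36 and 2.33 in KO IRI kidneys. It fell by 0.67 ± 0.10 in WT and rose by 0.49 ± 0.10 in KO, so that the genotypes lay 1.32 apart in sham and 0.16 apart in IRI kidneys. The interaction of Plaat3 was 1.16 ± 0.14 (adjusted p = 0.0235), but its second probe gave 0.26 ± 0.21.

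Hyls1, a centriole and cilium gene, had an interaction of 1.15 ± 0.14 (adjusted p = 0.0235) and fell by 0.96 ± 0.10 in WT. It read -3.66 to -3.57 in WT sham and -4.59 to -4.20 on all IRI and KO sham arrays. Its second probe gave 0.95 ± 0.25, in the same direction. With normexp the interaction was 0.37 and did not pass.

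Gpr33, an orphan receptor related to chemoattractant receptors, was well above background in WT sham kidneys alone, at -4.95, -5.13 and -4.11. WT sham stood at least 2.74-fold above WT IRI and at least 2.17-fold above KO sham kidneys, and the interaction was 3.17 ± 0.39 (adjusted p = 0.0235). Gpr33 entered the test only through those 3 arrays, and with normexp its interaction was 0.20 and did not pass. For 1700102P08Rik the measured groups were WT sham, at -5.34, -5.34 and -5.65, and KO IRI, at -5.65, -5.25 and -5.96. WT sham was at least 1.67-fold above WT IRI, KO IRI was at least 1.17-fold above KO sham, and the interaction was 3.88 ± 0.34 (adjusted p = 0.00595), but 0.31 with normexp, which did not pass.

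Ihh, Indian hedgehog, a ligand that the proximal tubule is known to express, differed from those 4 in that its KO response was larger than its WT response. It read 2.94, 2.98 and 2.77 in WT sham, 3.13, 3.03 and 3.25 in WT IRI, 2.16, 2.13 and 2.13 in KO sham and 3.47, 3.37 and 3.46 in KO IRI kidneys. It rose by 1.29 ± 0.11 in KO (adjusted p = 0.000699) and did not pass in WT (0.24 ± 0.11, adjusted p = 0.166). The interaction was 1.05 ± 0.15 (adjusted p = 0.0487). The KO to WT gap was -0.76 in sham and 0.295 in IRI kidneys. A second probe of Ihh gave -0.15 ± 0.55, so both probes of this gene do not give the same result.

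**Figure D2:**
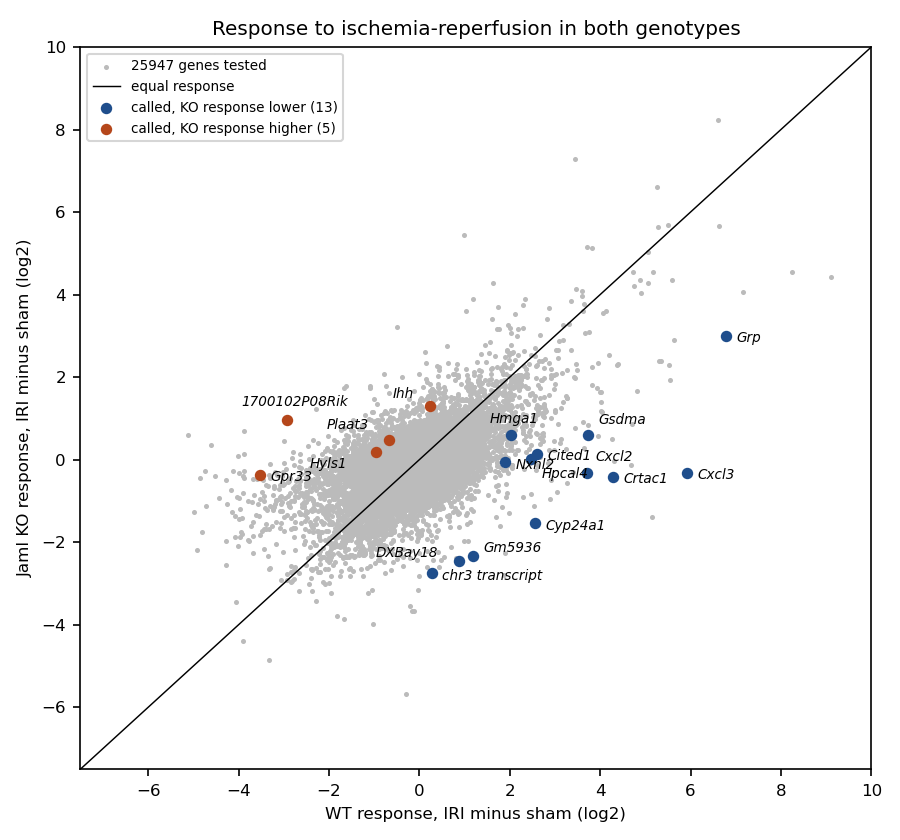
Log2 response to IRI in WT (x axis) and in KO kidneys (y axis) for 25947 genes (grey points), with the line of equal response. The 13 genes with a called lower KO response (blue) lie below the line and the 5 with a called higher one (orange) above it, and of these Grp and Hmga1 rose past the threshold in both genotypes.

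The gap between genotypes could lie in sham or in injured kidneys. Of the 13 genes with the lower KO response, 11 had the larger KO to WT gap in IRI kidneys, and of the 5 with the higher KO response, 4 had it in sham kidneys. The gap in IRI kidneys passed its own test in 12 of the 18, beside 1.94% of all genes, and the gap in sham kidneys in 10 of the 18, beside 8.86%. Over all 2531 genes with an unadjusted interaction p under 0.05 the balance was the other way, with 60.41% having the larger gap in sham kidneys, beside 50.69% of all genes tested. The 18 were chosen by a contrast of these same groups, so these counts describe them and test nothing. Sham and IRI gaps compare slides as well as genotypes.

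**Figure D3:**
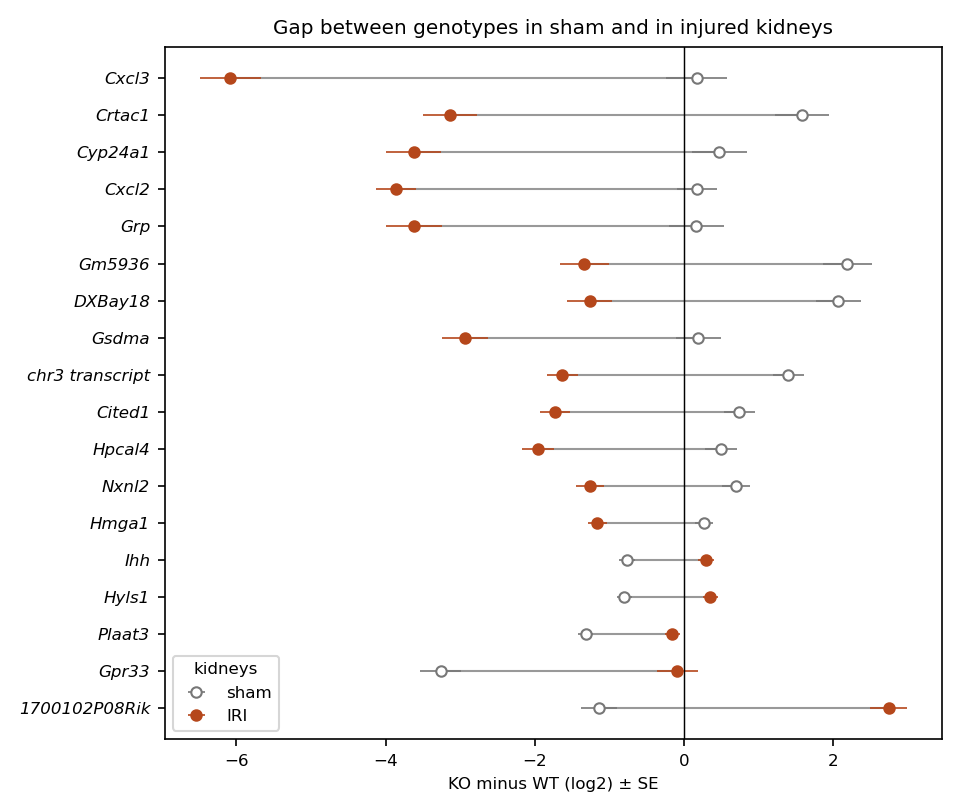
KO minus WT difference on the log2 scale (x axis) for the 18 called genes, in sham (open points) and in IRI kidneys (filled points), with standard errors of the fit as bars. From Cxcl3 down to Hmga1 the IRI point lies to the left of the sham point, and from Ihh to 1700102P08Rik to the right.

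Some genes responded in both genotypes. Of all genes, 824 passed in both IRI responses in the same direction, 348 higher and 476 lower, and 2 of them, Grp and Hmga1, had a called interaction. For 428 of the 824 (51.94%) the 95% interval of the interaction lay within 1 log2 unit of 0 on either side, close to the 50.44% of all genes tested. Lcn2, which encodes the injury marker lipocalin 2, rose by 5.27 ± 0.41 in WT and 5.64 ± 0.41 in KO, and its interaction of 0.37 had an interval from -0.91 to 1.65. Havcr1, which encodes kidney injury molecule 1, rose by 4.73 ± 1.15 and 4.54 ± 1.15, but the interval of its interaction of -0.19 ran from -3.81 to 3.43. Its KO IRI arrays read -2.27, -0.70 and 2.92, so its replicates spread widely and no difference smaller than that interval was detectable.

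The other shared genes taken by the rule were Saa2 (acute phase protein), Krt20 (keratin of injured epithelium), Mmp7 (matrix protease), Tac4 (tachykinin) and Lgi2. Their interactions were 1.60 ± 1.39, -0.95 ± 1.09, 0.18 ± 1.1, 1.35 ± 0.69 and -0.02 ± 0.69, and none passed. Clec4e, the gene of the receptor Mincle, rose by 2.72 ± 0.33 in WT, and its interaction of -0.79 ± 0.47 did not pass (adjusted p = 0.587). It read -2.30, -2.33 and -2.71 in WT IRI and -5.62, -6.15 and -5.84 in KO IRI kidneys. No KO sham array and 2 of the 3 KO IRI arrays were well above background, so the size of its KO response and of its interaction depends on signals at background. Its interaction passed in 1 of 26 alternative fits, the one with normexp (limma adjusted p = 0.0164).

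Of 8 genes that passed in opposite directions in both IRI responses, Cyp24a1, Gm5936, Plaat3 and 1700102P08Rik had a called interaction. Just outside the threshold lay Cxcl13 (-2.17 ± 0.32, adjusted p = 0.0611), Saa3 (3.86 ± 0.59, adjusted p = 0.0672), Gm5640 (-2.81 ± 0.44, adjusted p = 0.0683) and Sprr2g (-3.16 ± 0.52, adjusted p = 0.0870), and just inside it Ihh, Grp and Gsdma. No KO sham array was well above background for Saa3, and its interaction was -0.08 with normexp. Saa3 passed in 7 of 26 alternative fits, and Sprr2g in 3 of 27, the normexp fit among them.

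Of 34 gene lists, the chemokines had 1 member past the threshold, Cxcl2, and the other 33 had none, beside 0.0694% of all genes. The lists are therefore described by their medians and the signs of their members, beside a median interaction over all genes of -0.09 with 40.19% of genes positive. The chemokine list, which does not hold Cxcl3, had a positive median of 0.60, with 10 of 17 genes positive. The 6 highest medians were those of the following lists. All but 1 of 17 guanylate-binding proteins and related GTPases, which defend cells against microbes, were positive, with a median of 2.43. All 16 T and NK cell genes were positive (median 2.10), as were 13 of 14 genes of MHC class I and the immunoproteasome (1.43), 12 of 13 of MHC class II and dendritic cells (1.13), 21 of 22 of the interferon response (0.85) and 18 of 19 of the cell cycle (1.36). B and plasma cell genes had a median of -0.51, with 5 of 7 negative.

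The WT and KO responses of these lists differed in which passed. In WT kidneys 10 of the 17 guanylate-binding genes and 14 of the 16 T and NK cell genes passed as lower after injury. That compares with 5.9% of all genes. In KO kidneys none of either list passed as lower, beside 4.05% of all genes. Their median KO responses were nevertheless negative, at -0.52 and -1.48. The median KO to WT gap of the guanylate-binding genes was -4.50 in sham and -1.99 in IRI kidneys. For the T and NK cell genes it was -2.61 and -0.58. Both lists were thus already lower in KO sham kidneys, and these gaps compare slides as well as genotypes. Gbp8 read 0.65, 0.58 and 2.08 in WT sham, -1.65, -4.66 and -4.57 in WT IRI, -4.40, -3.29 and -4.13 in KO sham and -5.34, -4.77 and -5.12 in KO IRI kidneys. WT sham arrays were highest, WT IRI replicate 1 lay between them and the remaining arrays, and the interaction of 3.60 ± 1.04 did not pass (adjusted p = 0.341). Cd8a, the CD8 T cell coreceptor, read -0.66, -0.63 and -3.34 in WT sham and between -5.88 and -3.18 on all other arrays, with an interaction of 2.56 ± 0.94 (adjusted p = 0.432).

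Single arrays moved these lists. The mean level of the 17 guanylate-binding genes, with each gene centred over the 12 arrays, was 2.49, 2.47 and 4.11 in WT sham and 2.10, -1.03 and -1.03 in WT IRI, so WT IRI replicate 1 stood with the sham arrays. That of the 16 T and NK cell genes was 3.16, 3.17 and 0.53 in WT sham, so replicate 3 stood near the KO sham arrays (-0.32, 0.48 and -0.58). Without WT IRI replicate 1, 147 genes passed the interaction test (0.567%), 85 of them higher (0.328%). They included 9 of 14 MHC class I genes, 5 of 13 MHC class II genes, 5 of 17 guanylate-binding genes and 3 of 15 complement genes, and Gbp8 became 4.59 ± 0.62 (adjusted p = 0.0175). Without WT sham replicate 3, 59 genes passed (0.227%), 39 of them higher (0.15%), with 5 of 16 T and NK cell genes. Both fits were examined after seeing the data and kept all 18 genes, and what sets these 2 arrays apart was not tested.

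**Figure D4:**
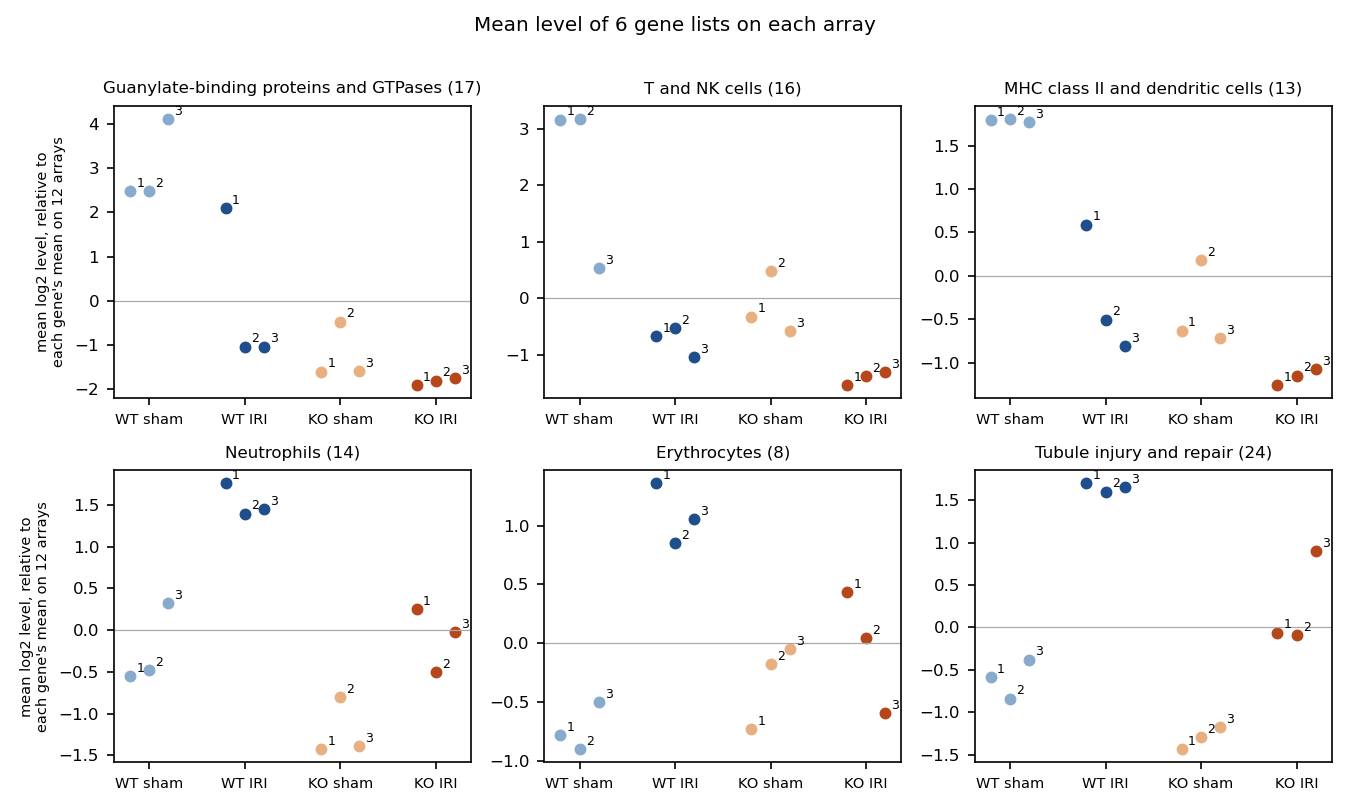
Mean log2 level of the measured genes of 6 lists (number of genes in brackets), each gene centred on its mean over 12 arrays, for each array (points, numbered by replicate) in the 4 groups. WT IRI replicate 1 lies at 2.10 for guanylate-binding genes, with the other WT IRI arrays at -1.03, and WT sham replicate 3 lies at 0.53 for T and NK cells, with the other WT sham arrays at 3.16 and 3.17.

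Injury, neutrophil and cytokine lists had negative medians. Tubule injury and repair genes had a median of -0.39, with 9 of 24 lower at an unadjusted p under 0.05, beside 5.97% of all genes, and none higher. In WT kidneys 15 of the 24 passed as higher after injury, beside 6.07% of all genes, and in KO kidneys 7, beside 2.11%. The squamous envelope gene Sprr2g read -4.53, -4.14 and -4.17 in WT sham, 0.50, 0.88 and 0.27 in WT IRI, -4.65, -4.13 and -4.25 in KO sham and -3.13, -3.22 and -1.67 in KO IRI kidneys. It rose in both genotypes, by 4.83 ± 0.37 and 1.67 ± 0.37. Clu, the chaperone clusterin, had an interaction of -0.81 ± 0.21 (adjusted p = 0.294). The mean level of the list was 1.60 to 1.70 in WT IRI kidneys and -0.06, -0.09 and 0.90 in KO IRI kidneys.

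Neutrophil genes had a median of -0.72, with 11 of 14 negative. In WT 8 of the 14 passed as higher after injury, beside 6.07% of all genes, and in KO 3, beside 2.11%. The formyl peptide receptor gene Fpr2 read -0.27, -0.17 and -0.09 in WT IRI and -1.51, -1.68 and -1.63 in KO IRI kidneys, with an interaction of -0.80 ± 0.17 (adjusted p = 0.210). Ly6g, a surface marker of mouse neutrophils, went the other way, with an interaction of 0.78 ± 0.26 (adjusted p = 0.395). The calprotectin genes S100a8 and S100a9 had interactions of 0.50 ± 0.93 and 0.49 ± 0.94 and did not pass. Cytokine genes had a median of -0.65, with 9 of 12 negative. Csf1, the growth factor of macrophages, had the smallest p of the list and a positive interaction of 1.13 ± 0.35 (adjusted p = 0.367). Il6 and Lif, cytokines that signal through gp130, had interactions of -3.60 ± 1.83 (adjusted p = 0.536) and -2.73 ± 1.00 (adjusted p = 0.432).

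Markers of blood and fat cells also had negative medians. The 4 globin genes Hba-a1, Hba-a2, Hbb-b1 and Hbb-b2 had interactions between -2.16 and -2.09, and Hba-a1 rose by 2.68 ± 0.40 in WT against 0.52 ± 0.40 in KO. These copies are nearly identical, so they do not count as 4 measurements. The mean level of the 8 erythrocyte genes was 0.85 to 1.36 in WT IRI and -0.59 to 0.43 in KO IRI kidneys. Adipocyte genes had a median of -2.83, but with standard errors of up to 3.16 none passed. Their mean level was -0.81, -2.02 and -1.33 in WT sham, 1.09, 2.58 and 0.13 in WT IRI, -0.85, 1.27 and -0.54 in KO sham and 0.12, -0.61 and 0.97 in KO IRI kidneys. KO sham replicate 2 stood above its group, and the median KO to WT gap was 1.52 in sham and -1.01 in IRI kidneys. The part of blood, fat and leukocyte content in the 18 interactions was not tested.

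The oxidative phosphorylation and proximal tubule lists had small negative medians. All 16 oxidative phosphorylation genes were negative (median -0.29) and 20 of 24 proximal tubule genes were (median -0.28), beside a median of -0.09 for all genes. Other scalings also moved the median of all genes. With quantile normalization the first median was -0.08 beside -0.011 for all genes, and with the authors' deposited log2 values the second was -0.08 beside -0.012. In the proximal tubule list, Slc7a13, an amino acid transporter of the straight segment, fell by 1.27 ± 0.19 in WT and 2.10 ± 0.19 in KO, and Slc5a2, the glucose transporter SGLT2, fell by 0.86 ± 0.18 in KO and had -0.10 ± 0.18 in WT (adjusted p = 0.764). Neither interaction passed, at -0.83 ± 0.27 and -0.76 ± 0.26. Fatty acid oxidation genes had a median of 0.02, with 10 of 17 positive, beside 40.19% of all genes.

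**Figure D5:**
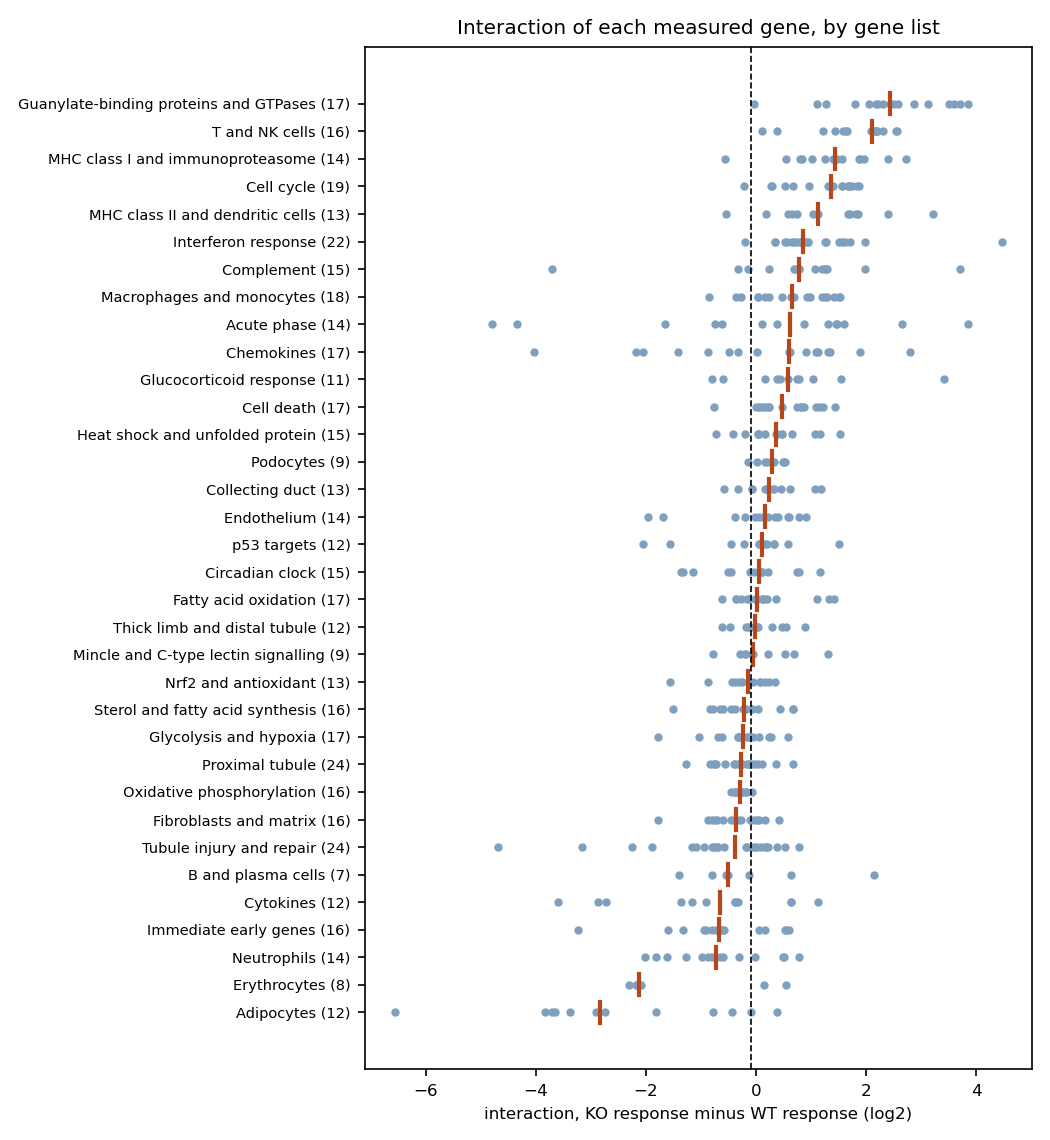
Interaction of each measured gene (points, x axis, log2) by gene list (rows, with the number of measured genes), the median of each list (orange bars) and the median over all 25947 genes (dashed line, -0.09). Guanylate-binding proteins and T and NK cells have the highest medians (2.43 and 2.10), and erythrocytes and adipocytes the lowest (-2.13 and -2.83).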

How the data were processed

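RNA of 12 kidneys was measured on one-colour Agilent arrays. The deposited scanner files hold the processed signal, the mean foreground and the local background as intensity. Per the file headers they come from the scanner software Agilent Feature Extraction, version 10.7.1.1, which corrected the background within the array and did not scale arrays to each other. A second deposited table holds log2 values by the authors, for which the submitters' processing notes name limma. Its columns correlated with the log2 processed signals with r of at least 0.9998, and all had a median of 5.71, so the scale is log2 with equal medians and no sign change, and how it was centred is not stated.

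Control spots and outlier-flagged spots were left out and spots of a probe averaged. All spots of a probe were flagged for 30 probe values, which were filled from the other arrays of the group. Log2 signals were reduced by the 75th percentile of the array. Probes well above background on at least 3 of 12 arrays were kept, and the probe with the highest mean stood for its gene. That left 25947 genes and transcripts, 16304 with an ordinary symbol. Names were updated by accession for 32994 of 56605 probes, and the name in the files was used for 23611. Between 35598 and 38522 probes per array (62.9% to 68.1%) were well above background and none was saturated, and the number of arrays limits the precision.

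Limma 3.58.1 in R 4.3.3 fitted 1 coefficient per group over 12 arrays, with 8 residual degrees of freedom, two-sided tests and Benjamini-Hochberg adjustment over all genes. Errors are standard errors. The fit was tested on simulated data, in which 100 genes were given an interaction of 1 log2 unit and 100 of 2 units. It called 34% and 60% of these, and 14 of 25747 genes given none. Errors were drawn independently for each gene and array. Deviations that many genes of an array share, as on WT IRI replicate 1, were therefore not simulated. The genes named are Jaml, Havcr1, Lcn2 and Clec4e, up to 15 called genes in each direction, up to 4 called or 2 uncalled genes of smallest p per list, and 6 shared responders. The lists and the genes always given were chosen with earlier results of these data known. Scaling, background correction, filters, probe choice, variance model, blocks and single arrays were varied.

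Slide and scan followed genotype, so a slide term could add nothing to the 4 groups. Same-numbered arrays of different groups did not deviate together (correlations from -0.267 to 0.151), so the replicate numbers were not used as pairs.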

Additional observations from a re-analysis of the deposited data

Results flagged for a closer look

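The WT and KO responses to injury differed, by the interaction test itself, in the 18 genes that passed, and these are the values to look at again. The KO response was lower for Cxcl3 (-6.25), Crtac1 (-4.72), Cyp24a1 (-4.10), Cxcl2 (-4.03), Grp (-3.79), Gm5936 (-3.53), DXBay18 (-3.34), Gsdma (-3.13), the chromosome 3 transcript (-3.03), Cited1 (-2.47), Hpcal4 (-2.46), Nxnl2 (-1.96) and Hmga1 (-1.43), all on the log2 scale. It was higher for 1700102P08Rik (3.88), Gpr33 (3.17), Plaat3 (1.16), Hyls1 (1.15) and Ihh (1.05). In 10 of them every array was well above background, and in 8 at least 1 group had no array well above it, so that the size there depends on how signals at background were filled.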

How the results depend on the processing

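The 18 calls (5 higher, 13 lower) kept within 1.5 times under quantile normalization (20), median centring (21), another percentile set (15), the authors' deposited log2 values (20), a filter by group (19), each probe on its own (15), and a trended robust variance (18). A slide term could not be separated from the groups, so that setting repeated the main fit and is no check. The repeated fit is counted among the alternatives below. Normexp background correction with an offset of 50 called 37 (9 higher, 28 lower), 10 of them among the 18. Under it Cxcl2 was -0.83 and Cxcl3 -2.04, and neither passed. No filter gave 3 higher calls, probes above background on all 12 arrays gave 10 (3 and 7), and the mean of a gene's probes 9 (2 and 7). Array weights, whose estimation did not converge (weights from 0.077 to 28.9), gave 6580 (2333 and 4247). A replicate block gave 5 calls (1 and 4), and a replicate block within genotype gave 0 by limma, with 2014 genes at an unadjusted p under 0.05. Without single arrays the count ran from 4 to 147, higher calls from 1 to 85 and lower calls from 3 to 62. It was 4 without WT sham replicate 1 or KO sham replicate 3, 5 without KO sham replicate 1 or KO IRI replicate 2, 6 without WT sham replicate 2, 7 without KO IRI replicate 1 and 30 without KO IRI replicate 3. Cxcl3, Cxcl2, the chromosome 3 transcript and 1700102P08Rik each passed in 24 of 26 alternatives, Crtac1 in 21 of 26, Cyp24a1 and Cited1 in 18 of 27, Gm5936 in 17, DXBay18, Hpcal4 and Hmga1 in 16, Plaat3 in 15, Hyls1 in 14, Nxnl2 in 13 and Ihh in 9 of 27, Gpr33 in 15 and Grp and Gsdma in 11 of 26. Where 26 is given, the filter for probes above background on all 12 arrays had removed the gene. Most alternatives kept the same signals at background, so a high count does not show that such a gene was well measured. None of the 18 changed sign. Interactions that had not passed did, among them the large one of Saa3 (3.86), which was -0.077 under normexp. Lgi2 was 0.12 under quantile normalization and the authors' values, 0.054 under median centring and 0.0031 under the other percentile set, Mmp7 was -2.30 under normexp and -0.75 for the mean of probes, Flt1 -0.088 for the mean of probes and Clec4e 0.10 with array weights. Without single arrays Havcr1 ran from -1.66 to 0.93, Lgi2 from -0.55 to 0.30, Mmp7 from -0.55 to 1.05 and Lcn2 from -0.12 to 0.89. The causes were not tested.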

Other observations

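None of the genes of the glomerulus, vessels and distal nephron segments listed here passed the interaction test. Podocyte genes had a median of 0.30, with 8 of 9 positive and values from -0.15 to 0.53; Wt1, the podocyte transcription factor gene, had 0.52 ± 0.21 (adjusted p = 0.479). Endothelial genes had a median of 0.17, and Selp, the adhesion molecule P-selectin, had -1.97 ± 0.43 (adjusted p = 0.227), with a rise of 2.19 ± 0.31 in WT and 0.22 ± 0.31 in KO (adjusted p = 0.736). Thick limb and distal tubule genes had a median of -0.01 and collecting duct genes of 0.23.

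The complement list had a median of 0.77. C3, the central complement protein, read 6.68, 6.75 and 7.91 in WT sham, 7.82, 6.04 and 6.00 in WT IRI, 2.44, 3.27 and 2.39 in KO sham and 5.94, 5.89 and 5.90 in KO IRI kidneys. It rose by 3.20 ± 0.49 in KO and did not pass in WT (-0.50 ± 0.49, adjusted p = 0.547), and its interaction of 3.70 ± 0.70 did not pass (adjusted p = 0.152). The acute phase gene Saa3 rose in both genotypes, by 3.43 ± 0.41 in WT and at least 32.3-fold in KO, where the sham arrays were not well above background, and reached 0.59 to 1.16 in WT IRI and -1.28 to -0.36 in KO IRI kidneys.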
